A study of Mus musculus with 6 samples.

Results

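Genes for storing fat and for the hormones made by fat cells were examined in mouse skin tumors and in healthy skin. The 35 genes were chosen by name, as those with an array probe whose annotated gene name is on a list of adipokines, lipid droplet proteins, lipases, uptake proteins, enzymes of triglyceride synthesis and their regulators. They stand against 36019 named genes or transcripts on the array, and 50 probes measured them. By where each gene is known to be expressed, 11 were classed as fat-restricted, 12 as shared with other organs such as liver, muscle or brain, and 12 as broadly expressed lipid enzymes and transporters. Biopsies came from female mice of the inbred strain FVB/N. The tumors (3 arrays) were cutaneous squamous cell carcinomas raised with DMBA, a polycyclic hydrocarbon mutagen, and TPA, a phorbol ester also called PMA that promotes skin tumors. TPA was painted on for 6 weeks, DMBA was then given once more, and TPA was continued for 14 weeks. Healthy skin (3 arrays) received acetone, the solvent. Treated skin free of tumors was not among the samples, so the tumor's effect and that of the carcinogens cannot be told apart.

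White fat cells lie below the dermis in mouse skin. They hold triglyceride in a large droplet coated by perilipins, fill it by taking up fatty acids and joining them to glycerol, and empty it through a chain of lipases. They also secrete hormones such as adiponectin and leptin. The nuclear receptor PPAR gamma and C/EBP proteins switch on many genes of this programme. Many of the enzymes also work in liver, muscle, macrophages, vessels, sebaceous glands or the epidermis, whereas the coat protein perilipin 1 and the adipokines are made almost wholly by fat cells.

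The arrays were comparable in number of spots, and of 59305 spots other than controls, between 48.7% and 65.4% gave a signal well above background on each. The tumor 1 array had a median background of 85 intensity units, against 23 to 26 on the others. The healthy skin 3 array was dim, with a 75th percentile signal of 242.3 intensity units against 524.9 to 897.2 on the others. All values below are log2 signals relative to the 75th percentile of the same array, so that 0 is the level of that percentile. Values in lists are in the order of array 1, 2 and 3 of a group. A gene is said to have fallen or risen where limma gave a Benjamini-Hochberg adjusted p under 0.05 over all 24757 features tested. The median of all features was -0.16 on the log2 scale, tumor minus healthy skin, and it moved to 0.73 when arrays were scaled to the added spike-in RNA. The spike-in signal lay 5.17 above the 75th percentile on healthy skin 3 and 2.81 to 3.49 above it on the other arrays. Spike-in scaling therefore shifts healthy skin 3 the most. All 10 keratinocyte markers passed the detection filter. Healthy skin 1 and 2 lay in row 1 of the slide and the other 4 arrays in row 2. With slide row as a block, the fitted change is therefore that of the tumors from healthy skin 3 alone. Every sample is labelled with an RNA integrity number of 9.

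Of the 35 genes, 33 were measured well enough to be tested. In tumors 23 of them fell and 0 rose, against 15.6% of all features lower and 10.3% higher. All 3 tumor arrays lay below all 3 healthy skin arrays in the same number of tested genes, 23, against 29.0% of all features, and above them in 0, against 20.7%. The median change of the tested genes was -3.24 on the log2 scale. By class, 8 of 10 fat-restricted genes fell with a median of -4.52, 9 of 11 shared genes fell with a median of -3.72, and 6 of 12 broadly expressed genes fell with a median of -1.37. Acvr1c, well above background on 0 tumor arrays, passed the detection filter through healthy skin alone; with it at its bound the fat-restricted median was -4.34. With spike-in scaling 15 of the 33 still fell, against 3.15% of all features lower in that setting. They were the same 8 fat-restricted genes, 7 shared genes and 0 broadly expressed ones. In biopsies, fewer fat cells and less RNA per fat cell cannot be told apart. Whether each biopsy was from a separate mouse is not in the labels, so the p-values measure only the spread between these samples.

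**Figure D1:**
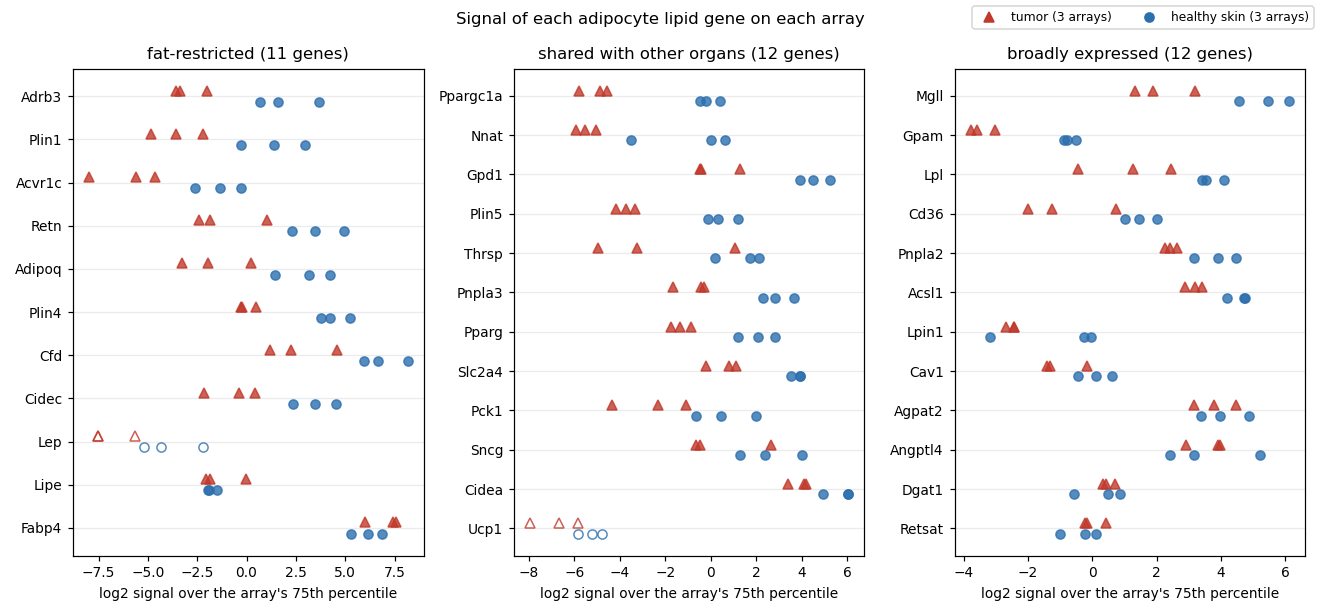
Each row is a gene and each point 1 array, with tumors as red triangles and healthy skin as blue circles. The x axis is the log2 signal relative to the array's 75th percentile, and open symbols mark the genes not tested, Lep and Ucp1. The groups are apart in 8 of 10 tested fat-restricted genes and overlap in 6 of 12 broadly expressed ones.

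Among the secreted factors, the 3 tested adipokines fell by similar amounts. The probes for adiponectin and for the upstream part of resistin are shown because they give the exact stretch of RNA that the array read for the hormones most particular to fat cells. Each is written in lower case from the array's own table, 5′ to 3′, with its place in the mouse build mm9. The adiponectin probe lies at chr16:23157576-23157635 on the plus strand and the resistin probe at chr8:3657312-3657371 on the plus strand, each within the annotated transcript of its gene.
Adipoq: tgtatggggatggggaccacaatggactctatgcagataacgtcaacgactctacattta
Retn: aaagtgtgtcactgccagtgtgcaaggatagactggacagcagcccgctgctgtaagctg

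Adipoq encodes adiponectin, an insulin-sensitizing hormone. Its signal was -1.94, 0.25 and -3.28 in tumors, against 1.43, 3.18 and 4.24 in healthy skin. Every tumor array lay below every healthy skin array, and the tumor 2 array lay nearest to them. The change was -4.61 ± 0.99 on the log2 scale (SE), or 24.3-fold lower (limma adjusted p = 0.0156). Retn encodes resistin, which is made by fat cells in mice, and read -1.84, 1.02 and -2.39 in tumors, against 2.29, 3.46 and 4.96 in healthy skin. It was 24.9-fold lower (limma adjusted p = 0.0151), and its upstream probe printed above gave -4.40 ± 0.99 (SE) against -4.64 ± 0.99 for the downstream one. Cfd encodes adipsin, the complement protease factor D, which fat cells secrete in large amounts. It read 2.23, 4.60 and 1.20 in tumors, against 5.97, 6.66 and 8.17 in healthy skin, and was 19.1-fold lower (limma adjusted p = 0.0153). Tumor 2 was again the highest of the tumors in both genes. These 3 calls are close to the threshold when an array is missing: without healthy skin 3 the limma adjusted p was 0.0565 for Adipoq, 0.0535 for Retn and 0.0541 for Cfd, and without tumor 1 it was 0.0503, 0.0512 and 0.0507 for the same genes. Lep encodes leptin, the satiety hormone, and was well above background on 0 of 3 tumor arrays and 2 of 3 healthy skin arrays. It was not tested, and read -5.65, -7.52 and -7.52 in tumors, against -5.22, -2.23 and -4.34 in healthy skin. Because not every healthy skin array was well above background, no size is given for the difference.

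All 5 droplet coat genes fell, with a median of -4.20 on the log2 scale. Plin1 encodes perilipin 1, which coats the large droplet of fat cells and gates access of lipases to it. It read -3.59, -2.21 and -4.84 in tumors, against -0.30, 1.41 and 2.95 in healthy skin. The groups were apart, and the change was -4.90 ± 0.92 (SE), or 29.8-fold lower (limma adjusted p = 0.00956). Cidec, also called FSP27, passes lipid between droplets so that they merge into a large one. It read -0.39, 0.45 and -2.13 in tumors, against 2.36, 3.47 and 4.53 in healthy skin, and was 17.7-fold lower (limma adjusted p = 0.00898). Plin4, a perilipin found on young droplets of fat cells, read 0.48, -0.28 and -0.25 in tumors, against 3.76, 4.23 and 5.26 in healthy skin. The tumors lay close together for this gene, and it was 21.6-fold lower (limma adjusted p = 0.00106). Plin5 coats droplets of oxidative tissues such as heart and muscle, and read -3.72, -4.18 and -3.31 in tumors, against -0.11, 1.21 and 0.30 in healthy skin. It was well above background on 2 of 3 tumor arrays and was 18.4-fold lower (limma adjusted p = 0.00104). Cidea, a relative of Cidec known from brown fat and from mouse sebaceous glands, fell least of the 5. It read 4.08, 3.39 and 4.19 in tumors, against 4.91, 6.05 and 6.04 in healthy skin, a 3.44-fold decrease (limma adjusted p = 0.0199). That call was lost without healthy skin 2 (adjusted p = 0.066), healthy skin 3 (0.0552) or tumor 2 (0.0661), and with spike-in scaling (0.401).

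Because Plin1 and Cidec moved together, their promoters are shown, with that of Retsat, a gene whose change did not pass the test, for comparison. The sequences are from RefSeq on build GRCm38.p6 and run from 250 bases before to 50 bases after the annotated start. Capitals mark matches to TTGCNNAA on either strand, a short form of the sequence that C/EBP proteins bind. Plin1 lies at chr7:79732727-79733026 on the minus strand, Cidec at chr6:113434715-113435014 on the minus strand and Retsat at chr6:72598352-72598651 on the plus strand.
Plin1: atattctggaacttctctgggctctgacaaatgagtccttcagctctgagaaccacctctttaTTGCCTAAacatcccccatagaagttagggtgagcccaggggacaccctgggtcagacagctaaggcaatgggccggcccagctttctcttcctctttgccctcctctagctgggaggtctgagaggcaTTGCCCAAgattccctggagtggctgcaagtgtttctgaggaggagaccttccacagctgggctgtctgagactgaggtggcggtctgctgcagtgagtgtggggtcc
Cidec: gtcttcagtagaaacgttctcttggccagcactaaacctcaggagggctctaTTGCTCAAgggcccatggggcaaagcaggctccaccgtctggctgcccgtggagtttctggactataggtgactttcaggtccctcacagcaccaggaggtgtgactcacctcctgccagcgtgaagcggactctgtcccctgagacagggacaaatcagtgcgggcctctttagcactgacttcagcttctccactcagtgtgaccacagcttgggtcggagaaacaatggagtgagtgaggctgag
Retsat: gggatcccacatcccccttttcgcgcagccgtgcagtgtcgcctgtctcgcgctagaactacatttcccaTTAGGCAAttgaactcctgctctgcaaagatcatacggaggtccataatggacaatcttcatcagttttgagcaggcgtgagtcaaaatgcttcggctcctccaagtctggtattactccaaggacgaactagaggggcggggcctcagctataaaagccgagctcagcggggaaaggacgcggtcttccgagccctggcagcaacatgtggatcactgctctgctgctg

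RefSeq promoters could be matched for 27 of the 35 genes. TTGCNNAA was present in a promoter of 6 of these 27 genes: in 3 of 9 fat-restricted, 1 of 9 shared and 2 of 9 broadly expressed genes. Counted by promoter, it was present in 6 of their 37 promoters, against 10.8% of all 32851 promoters. Within the printed sequences it began at -187 and -58 from the start of Plin1 and at -198 from that of Cidec, which fell. It also began at -180 from the start of Retsat, which did not pass the test. The direct repeat bound by PPAR gamma with its partner, searched on both strands as AGGTCA, 1 free base and AGGTCA again, was in 0 promoters of these genes and in 0.0396% of all. The relaxed form with AGGNCA as each part was in 0 of them and in 0.381% of all. These are matches of letters in a short window and say nothing of binding.

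Of the 4 lipases, 3 fell. Pnpla2, Lipe and Mgll work in sequence on stored triglyceride. Pnpla2 encodes adipose triglyceride lipase, which takes off the first fatty acid in many tissues. It read 2.41, 2.64 and 2.26 in tumors, against 3.15, 3.89 and 4.47 in healthy skin, and was 2.63-fold lower (limma adjusted p = 0.0343). The call for Pnpla2 was lost whenever an array other than healthy skin 1 was left out (adjusted p = 0.0579 to 0.0895), and with spike-in scaling (0.629). Mgll encodes monoglyceride lipase, which takes off the last fatty acid. It read 1.34, 1.88 and 3.20 in tumors, against 4.55, 5.47 and 6.12 in healthy skin, and was 9.45-fold lower (limma adjusted p = 0.0081). Pnpla3, also called adiponutrin, is a lipid droplet protein of fat and liver and read -1.66, -0.43 and -0.28 in tumors, against 2.31, 2.83 and 3.65 in healthy skin. It was 13.2-fold lower (limma adjusted p = 0.00278). The groups did not overlap in any of these 3 genes.

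Lipe and Fabp4 were the tested genes of the fat-restricted class that did not pass the test, and both are also known from other cells. The probes of Lipe and of Dgat1, a later enzyme of triglyceride synthesis, are shown because their signals overlapped between groups while 23 of the 33 tested genes fell. Lipe's probe lies at chr7:26165828-26165887 on the minus strand of mm9 and Dgat1's at chr15:76333128-76333274 on the minus strand. The Dgat1 probe has 60 bases over a genomic span of 147 bases, so it reads across a splice junction.
Lipe: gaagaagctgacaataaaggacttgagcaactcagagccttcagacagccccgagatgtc
Dgat1: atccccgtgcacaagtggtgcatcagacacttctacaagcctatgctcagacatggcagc

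Lipe encodes hormone-sensitive lipase, which acts after Pnpla2 and is also used in steroid-making and other cells. It read -0.04, -2.03 and -1.84 in tumors, against -1.90, -1.51 and -1.95 in healthy skin. Tumor 1 alone stood above healthy skin, and the other tumors lay at its lower end. The difference was 0.48 with a 95% interval from -0.77 to 1.73 (limma adjusted p = 0.527), and it was -0.15 without tumor 1. Fabp4 encodes the fatty acid carrier of fat cells, which vessel and macrophage cells also make. It read 7.42, 7.57 and 5.99 in tumors, against 5.30, 6.14 and 6.86 in healthy skin. The groups overlapped, and the difference was 0.90 with a 95% interval from -0.39 to 2.19 (limma adjusted p = 0.257). The intervals of both genes lie above the changes of the 8 fat-restricted genes that fell, of which the smallest fitted change was -4.15. Among 12 endothelial markers 1 fell and 1 rose, with a summed signal of 34.5 to 53.3 in tumors and 41.7 to 119 in healthy skin, in units of the array's 75th percentile. Among 12 macrophage markers 1 fell and 1 rose, with a summed signal of 23.3 to 88.2 in tumors and 33.6 to 53.2 in healthy skin. Of all features 15.6% were lower and 10.3% higher. None of the 24 endothelial and macrophage markers failed the detection filter. Their part in the Fabp4 and Lipe signals was not tested.

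**Figure D2:**
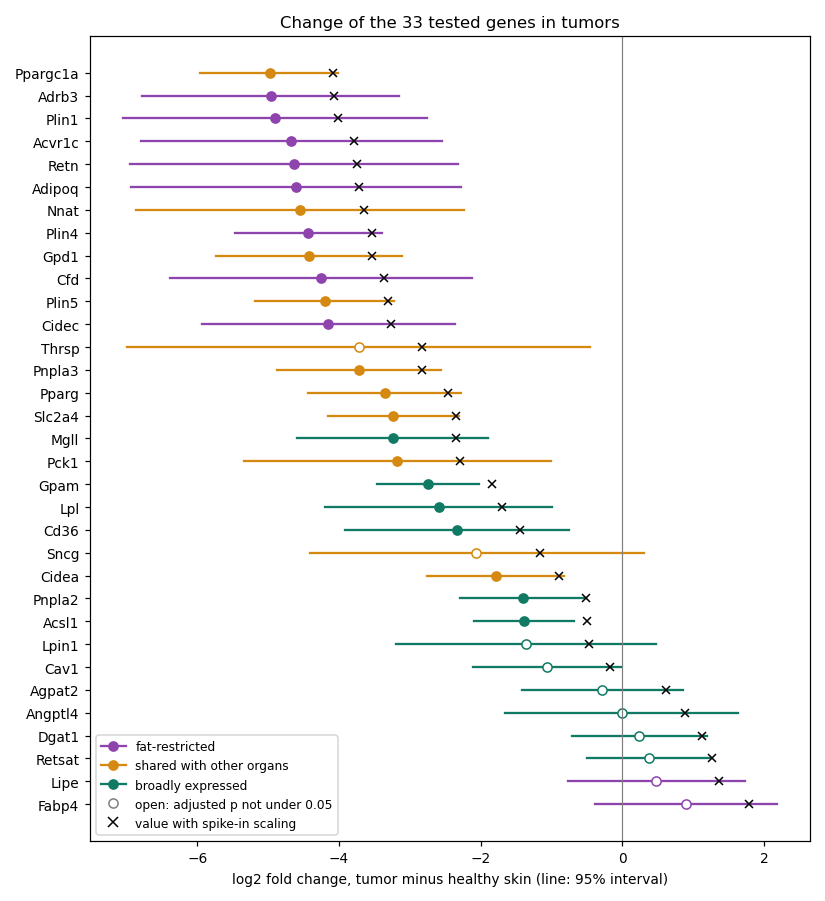
Log2 change in each of the 33 tested genes, tumor minus healthy skin, with 95% intervals from limma. Filled circles passed the test, open circles did not, and crosses give the value with spike-in scaling. The fat-restricted genes lie between -4.96 and -4.15 except Lipe and Fabp4, with Acvr1c at its fitted value, and the broadly expressed genes lie between -3.24 and 0.38.

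Uptake genes were divided, with 4 of 7 lower. Slc2a4 encodes GLUT4, the insulin-responsive glucose transporter of fat and muscle. It read 0.78, 1.12 and -0.22 in tumors, against 3.52, 3.94 and 3.92 in healthy skin, and was 9.42-fold lower (limma adjusted p = 0.00206). Lpl encodes lipoprotein lipase, which frees fatty acids from circulating triglyceride. It read -0.46, 1.27 and 2.45 in tumors, against 3.54, 4.09 and 3.41 in healthy skin, and was 6.04-fold lower (limma adjusted p = 0.0307). Tumor 3 was the highest of the tumors here, unlike in the adipokines. Cd36, a fatty acid carrier of the cell membrane, showed the same order, with -1.99, -1.27 and 0.72 in tumors, against 1.0, 2.01 and 1.46 in healthy skin. It was 5.05-fold lower (limma adjusted p = 0.0415). Acsl1, which joins fatty acids to coenzyme A, read 3.42, 2.87 and 3.18 in tumors, against 4.17, 4.76 and 4.71 in healthy skin, and was 2.62-fold lower (limma adjusted p = 0.0165). The calls for Lpl, Cd36 and Acsl1 depended on single arrays: Lpl was lost without healthy skin 1, 2 or 3 or tumor 2 (adjusted p = 0.0625 to 0.0827), Cd36 without any array but tumor 3 (0.0606 to 0.112) and Acsl1 without healthy skin 2 (0.0627) or tumor 2 (0.064). With slide row as a block, Lpl (0.145) and Cd36 (0.147) were lost as well. Angptl4, a secreted inhibitor of Lpl, read 2.90, 3.89 and 3.97 in tumors, against 2.42, 3.17 and 5.20 in healthy skin. Its difference of -0.01 had a wide 95% interval, from -1.65 to 1.64. Cav1, the main protein of caveolae, had a difference of -1.06 with a 95% interval from -2.11 to -0.02 and did not pass the adjusted test (limma adjusted p = 0.117).

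In the pathway that builds triglyceride, the genes that supply glycerol phosphate and start the chain fell, and those of the later steps did not pass the test. Gpd1 makes glycerol-3-phosphate from a product of glycolysis. It read -0.46, 1.27 and -0.42 in tumors, against 3.92, 4.47 and 5.24 in healthy skin, and was 21.4-fold lower (limma adjusted p = 0.00232). Pck1, which feeds the same backbone from pyruvate in fat and makes glucose in liver and kidney, read -2.31, -1.07 and -4.33 in tumors, against -0.64, 0.47 and 2.0 in healthy skin. It was 9.05-fold lower (limma adjusted p = 0.0423), a call lost without healthy skin 2, healthy skin 3, tumor 1 or tumor 3 (adjusted p = 0.0842 to 0.123). Gpam adds the first fatty acid. It read -3.79, -3.59 and -3.03 in tumors, against -0.51, -0.79 and -0.89 in healthy skin, and was 6.66-fold lower (limma adjusted p = 0.0015). Gpam was well above background on 2 of 3 tumor arrays. The next enzyme, Agpat2, overlapped between groups and differed by -0.28 with a 95% interval from -1.41 to 0.86. Dgat1, which adds the last fatty acid, read 0.34, 0.43 and 0.70 in tumors, against 0.47, 0.86 and -0.58 in healthy skin. It differed by 0.24 with a 95% interval from -0.71 to 1.19, so a decrease as large as that of Gpam lies outside its interval. Lpin1, the phosphatase between them, rested on 1 array: it read -2.69, -2.44 and -2.43 in tumors, against -0.27, -0.03 and -3.18 in healthy skin. Its change was -1.36 (limma adjusted p = 0.231) with all arrays and -2.37 (limma adjusted p = 0.0049) without healthy skin 3.

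Of the 5 tested regulators and receptors 4 fell. Ppargc1a, a coactivator that drives mitochondrial genes in muscle and brown fat, read -5.80, -4.87 and -4.55 in tumors, against -0.20, -0.49 and 0.42 in healthy skin. It was well above background on 2 of 3 tumor arrays and was 31.6-fold lower (limma adjusted p = 0.000626). Adrb3, the adrenergic receptor through which nerves start lipolysis, read -3.56, -2.02 and -3.38 in tumors, against 0.68, 1.59 and 3.66 in healthy skin. This gene too was well above background on 2 of 3 tumor arrays, and it was 31.2-fold lower (limma adjusted p = 0.00491). Pparg, the central regulator of fat cell formation, read -1.74, -1.33 and -0.88 in tumors, against 1.19, 2.09 and 2.82 in healthy skin, and was 10.2-fold lower (limma adjusted p = 0.00312). Acvr1c encodes ALK7, an activin receptor of fat cells that restrains lipolysis. It was not well above background on any tumor array and was at least 15.6-fold lower. The limma adjusted p of 0.0108 rests on fitted tumor signals that were not well above background, not on this bound. Acvr1c passed the detection filter through healthy skin alone. Ucp1, the heat-producing protein of brown fat, was well above background on 1 of 6 arrays, from healthy skin, and was not tested. Thrsp, a promoter of fatty acid synthesis in fat and liver, read -3.24, 1.06 and -4.95 in tumors, against 0.19, 1.73 and 2.10 in healthy skin. Tumor 2 lay within the healthy range: the change was -3.72 ± 1.40 (SE; limma adjusted p = 0.089) with all arrays and -5.44 (limma adjusted p = 0.00527) without tumor 2.

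The remaining 3 genes have less direct links to storage. Nnat, neuronatin, is made in brain, endocrine cells and fat, and read -5.90, -5.53 and -5.06 in tumors, against -3.51, 0.03 and 0.62 in healthy skin. It was well above background on 2 of 3 tumor arrays and was 23.4-fold lower (limma adjusted p = 0.0162). The call was lost without healthy skin 3 (adjusted p = 0.0527) or tumor 1 (0.0529). Sncg, gamma-synuclein, is made in sensory neurons and fat, and read 2.66, -0.65 and -0.48 in tumors, against 1.30, 2.38 and 4.01 in healthy skin. Tumor 1 stood above healthy skin 1 and 2, so the change was -2.06 (limma adjusted p = 0.167) with all arrays and -3.13 (limma adjusted p = 0.0375) without tumor 1. Retsat, retinol saturase, a target of PPAR gamma in mouse fat, read 0.43, -0.24 and -0.17 in tumors, against -0.24, 0.12 and -1.01 in healthy skin. Its difference of 0.38 had a 95% interval from -0.50 to 1.27.

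The tumors did not lose the fat signal equally. Among the 8 fat-restricted genes that fell, tumor 2 was the highest tumor in 6 and tumor 3 the lowest in 6. Acvr1c, whose tumor signals were not well above background, is among these 8. The median distance of these genes from the healthy skin mean was -4.79 for tumor 1, -3.28 for tumor 2 and -5.85 for tumor 3, on the log2 scale. Without tumor 2 the median change of the 10 tested fat-restricted genes was -5.07, and without tumor 3 it was -3.76. Skeletal muscle genes showed the same tumor on top. Of these, 14 of 15 fell, against 15.6% of all features lower. In the 14 that fell, tumor 2 was the highest tumor in 14 and tumor 3 the lowest in 13. Their summed signal was 35.7 to 76.7 in tumors and 1260 to 1960 in healthy skin, in units of the array's 75th percentile. Skeletal muscle lies beneath the fat layer of mouse skin. Pvalb, which binds calcium in fast muscle fibres, was 78.1-fold lower (limma adjusted p = 0.000652), Myoz1 of the muscle Z-disc 65.5-fold lower (limma adjusted p = 0.000545) and the muscle enolase Eno3 42.2-fold lower (limma adjusted p = 0.000173). The part that the depth of the biopsies had in the fall of the fat genes was not tested. In the 9 shared genes that fell, tumor 3 was the highest tumor in 6, and in the 6 broadly expressed ones in 4.

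**Figure D3:**
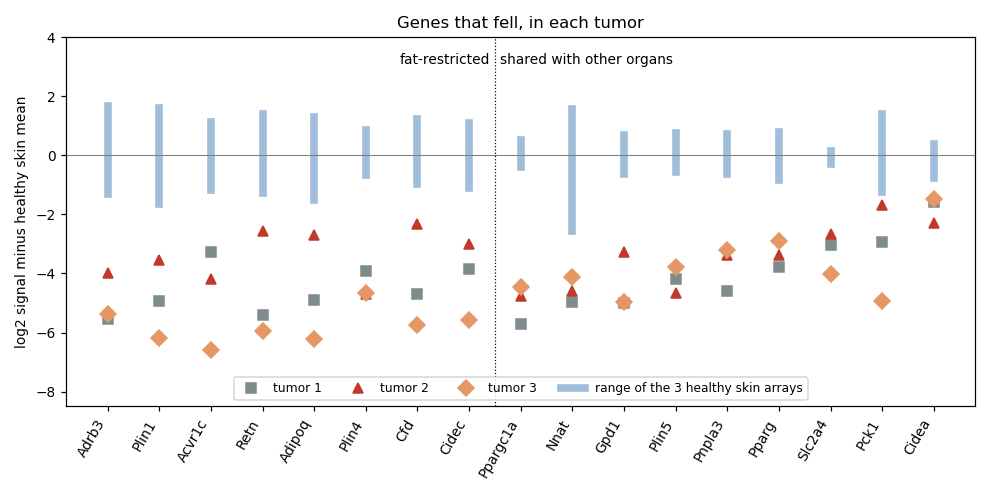
Each symbol is 1 tumor's log2 signal minus the mean of the 3 healthy skin arrays, for the 8 fat-restricted and 9 shared genes that fell. Blue bars span the healthy skin arrays. Tumor 2 lies highest in 6 of the 8 fat-restricted genes and tumor 3 lowest in 6. Acvr1c is drawn at tumor signals that were not well above background.

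Healthy skin varied as well. In the 8 fat-restricted genes that fell, healthy skin 3 was the highest of its group in 8 and healthy skin 1 the lowest in 8. For Adipoq the healthy skin arrays spanned 1.43 to 4.24 on the log2 scale, and for Plin1 -0.30 to 2.95. Muscle genes ran otherwise, with healthy skin 2 the highest in 12 of 14 and healthy skin 3 the lowest in 10. Without healthy skin 3, 5 of the 10 tested fat-restricted genes fell, against 13.1% of all features lower, and the median of the 10 was -3.95. Without tumor 1, 5 fell as well, with a median of -4.38. With slide row as a block, which sets the tumors against healthy skin 3 alone, the median was -5.65.

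Healthy skin 3 also stood apart in how the signal was spread along transcripts, and several of these genes have probes at more than 1 place. Over 4918 genes with probes at least 200 bases apart, the median difference of the upstream minus the downstream probe was -1.51 on healthy skin 3, against -0.99 to -1.17 on the other arrays. Healthy skin 3 had the lowest difference of the 6 arrays in 49.1% of these genes. For Cidec that difference was -3.19, -3.29 and -3.44 in tumors, against -4.48, -4.31 and -7.57 in healthy skin. For Mgll it was -2.54, -2.75 and -2.70 in tumors, against -3.00, -3.58 and -7.21 in healthy skin. In both genes the upstream probe alone did not pass the test, with a change of -2.0 for Cidec (limma adjusted p = 0.102, every probe by itself) and -1.31 for Mgll (limma adjusted p = 0.266). Mgll had 4 probes, and those lying between gave -3.45 (limma adjusted p = 0.0072) and -2.27. The one at -2.27 was well above background on 0 of 3 tumor arrays, so its signals in tumors are only bounds. The upstream probe of Pnpla3 gave -1.49 (limma adjusted p = 0.164) and that of Acsl1 -0.31 (limma adjusted p = 0.571). Upstream probes of Retn, Adrb3, Lpl and Gpam passed, at -4.40, -1.85, -2.78 and -2.18 (limma adjusted p = 0.00214 to 0.0348). Those of Acvr1c and Nnat were well above background on 0 of 3 tumor arrays, so their signals in tumors are only bounds. That of Agpat2 gave 0.89 (limma adjusted p = 0.266). The part of RNA quality in this difference between arrays was not tested. The size of the fall depended on the probe in several genes, and for Cidec, Pnpla3, Mgll and Acsl1 the call did too.

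**Figure D4:**
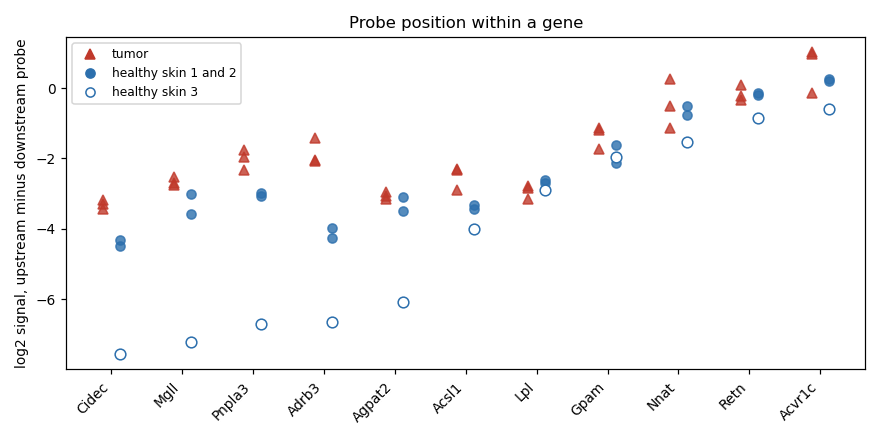
Upstream minus downstream probe of the same gene, in log2 signal, for the 11 genes with more than 1 probe past the detection filter. Tumors are triangles, healthy skin 1 and 2 filled circles and healthy skin 3 an open circle. Healthy skin 3 lies below every other array in 9 of the 11 genes, all but Gpam and Lpl. In Acvr1c and the upstream probe of Nnat the tumor signals were not well above background.

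The fat-restricted genes were contrasted with the other classes within each array, by subtracting the array's median of the fat-restricted genes. On this scale all 3 tumor arrays lay above all 3 healthy skin arrays in 7 of 12 broadly expressed genes, 2 of 11 shared genes and 2 of 10 fat-restricted genes, and below them in 0 (0.0646% of all features lay below). The 7 were Pnpla2, Angptl4, Cav1, Acsl1, Agpat2, Dgat1 and Retsat. Among all features 89.4% lay above in this way, a higher share than in any of the 3 classes. The other 5 broadly expressed genes, Mgll, Lpl, Cd36, Gpam and Lpin1, overlapped between groups. Cidea and Pck1 were the shared genes that lay above. The exact permutation test, two-sided over 3 against 3 arrays, cannot give less than p = 0.10, which these separated genes reached. After Benjamini-Hochberg adjustment over the 33 genes the value was 0.3. Subtracting the median of genes that fell lifts every other gene in tumors, so these values describe the contrast and are no test of a rise.

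Other genes of the same pathways gave a mixed picture, set against 15.6% of all features lower and 10.3% higher. With spike-in scaling 3.15% of all features were lower, and with slide row as a block 21.1%. Of 19 tested further genes known from fat cells, 11 fell and 0 rose, with a median of -1.42. With spike-in scaling 5 fell, with a median of -0.53. The carbonic anhydrase Car3, abundant in fat and muscle, read 1.18, 2.80 and 0.98 in tumors, against 6.67, 6.97 and 7.80 in healthy skin. The groups were apart by -5.49 ± 0.55 (SE; limma adjusted p = 0.00102), and tumor 2 was again the highest tumor. Nrg4, a growth factor secreted by brown and white fat, was 15.2-fold lower (limma adjusted p = 0.000879) and Adig, adipogenin, 14.8-fold lower (limma adjusted p = 0.00539). Nrg4 was well above background on 2 of 3 tumor arrays. Cyp2e1, a cytochrome P450 of liver and fat, was 19.4-fold lower (limma adjusted p = 0.0302), a call lost without healthy skin 2, healthy skin 3, tumor 1 or tumor 3 (0.0641 to 0.0965). Of 12 fatty acid synthesis genes 8 fell and 2 rose, with a median of -1.64. The counts were 2 lower and 2 higher with spike-in scaling, with a median of -0.75, and 4 lower and 1 higher with slide row as a block. Acacb, the mitochondrial acetyl-CoA carboxylase, was 26.5-fold lower (limma adjusted p = 0.00222) and the elongase Elovl6 10.4-fold lower (limma adjusted p = 0.00169), whereas the desaturase Scd2 was 3.38-fold higher (limma adjusted p = 0.00963). Acss2, which makes acetyl-CoA from acetate, was 2.46-fold higher (limma adjusted p = 0.0413), a call lost without healthy skin 1 or 2 or tumor 1 or 2 (0.0818 to 0.117). Of 11 tested genes known from brown fat 6 fell and 0 rose, with a median of -2.61, and 3 fell with spike-in scaling, with a median of -1.72. Dio2, Kcnk3, Slc27a1, Otop1 and Letmd1 did not pass the test. Elovl3, which fell, is also counted among the sebaceous gland genes below. The muscle and brown fat forms of cytochrome oxidase subunits, Cox8b and Cox7a1, were 40.2-fold and 20.2-fold lower (limma adjusted p = 0.000158 and 0.000579).

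Markers of other skin structures were counted too, against 15.6% of all features lower and 10.3% higher. With spike-in scaling 3.15% of all features were lower, and with slide row as a block 21.1%. Of 11 tested sebaceous gland genes 9 fell and 0 rose, with a median of -2.59 and a summed signal of 32.0 to 99.9 in tumors against 315 to 363 in healthy skin. With spike-in scaling 2 of the 11 fell (median -1.70), and with slide row as a block 3. Awat2, a wax synthase of that gland, was 33.7-fold lower (limma adjusted p = 0.00304). It was well above background on 1 of 3 tumor arrays. Of 9 tested nerve and Schwann cell genes 6 fell and 0 rose, with a median of -2.35 and a summed signal of 14.1 to 25.1 in tumors against 23.4 to 41.7 in healthy skin. With spike-in scaling 2 of the 9 fell (median -1.46). Of 12 genes of fat cell progenitors and dermal fibroblasts 3 fell and 1 rose, with a median of -0.53. Pi16, a marker of fibroblast progenitors, was 15.5-fold lower (limma adjusted p = 0.00219). The collagen gene Col1a1 of the same list was 3.32-fold higher (limma adjusted p = 0.0412). Its call was lost without healthy skin 1 or 2 or any 1 tumor (0.0603 to 0.109). The list held 8 genes that did not pass the test. Of 10 keratinocyte genes 2 fell and 1 rose, near the shares of all features, with a median of 0.05. Several of the 35 genes, such as Cidea and Pparg, are known from sebaceous glands as well, and Slc2a4, Plin5 and Ppargc1a from muscle. The part of these tissues in the changes of those genes was not tested.

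**Figure D5:**
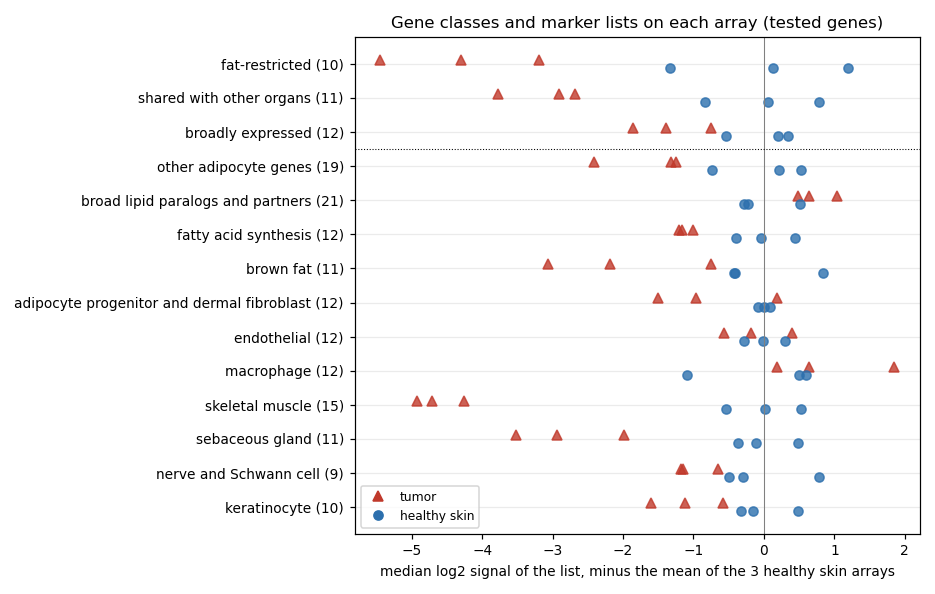
Median log2 signal of the tested genes in each class and marker list on each array, minus the mean of the 3 healthy skin medians. Tumors are triangles and healthy skin circles, and the dotted line parts the 3 classes of fat storage genes from the marker lists. The tumor arrays lie below healthy skin in the classes of fat storage genes and farthest below it in the fat-restricted genes and skeletal muscle, and they overlap with healthy skin in the endothelial, macrophage and progenitor lists.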

How the data were processed

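RNA of 3 tumor and 3 healthy skin biopsies was labelled with Cy3 and read on 1-colour Agilent arrays, per the labels. Agilent Feature Extraction 10.7.3.1 gave the deposited intensity values, with background subtracted, per the file headers. A single slide held all 6 arrays. The log2 values in the authors' deposited table rank spots as the median signal does (Spearman 1.0), and were used as an alternative. Their background handling is not given in the sources used here.

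Processed signals were divided by each array's 75th percentile over spots that were not controls, and log2 was taken. Spots with outlier flags were left out. A probe had to be well above background on 3 of 6 arrays, and a gene was represented by its probe of highest mean (24757 features). limma 3.58.1 in R 4.3.3 (lmFit, eBayes, two-sided) compared the groups, with no block. The number of arrays limits precision. "At least" folds set the bright mean against the lowest signal well above background, or the dim probe's own where higher. Code was tested on simulated data. Probe positions are on mm9, and RefSeq gave names. The members, lists and tests were chosen with earlier results of these data known. All 35 members are reported, and other list genes were taken, with their values known, from those that a rule names: up to 4 called genes per list with the largest separated changes and those against their list's direction. Fabp5, Slc2a1, Plin2 and Plin3 were picked after their values were seen.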

Additional observations from a re-analysis of the deposited data

How the results depend on the processing

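Of the 23 genes that fell, 9 kept the call in every one of 21 alternatives that gave a value (Acvr1c, Adrb3, Gpd1, Plin4, Plin5, Pnpla3, Pparg, Ppargc1a and Slc2a4), and 0 turned direction. For Acvr1c the tumor signals behind these calls were not well above background. With every probe tested by itself, each gene was read here from its main probe, and the upstream probe of Pnpla3 did not pass. The count of storage genes lower in tumors was 15 with spike-in scaling, 15 to 21 with 1 array left out (15 without healthy skin 3) and 13 without healthy skin 3 and tumor 1. Of all features, 3.15% were lower with spike-in scaling, 9.96% to 13.1% with 1 array left out and 12.2% without healthy skin 3 and tumor 1. The median of the shared genes was -2.83 with spike-in scaling, -3.00 with normexp, -4.44 with slide row as a block and -2.92 without healthy skin 3 and tumor 1, and that of the broadly expressed genes was -0.48 with spike-in scaling. Over all features, 3867 were lower in the main setting, 781 with spike-in scaling, 2444 with no filter, 2398 with detection on all 6 arrays and 2465 to 3236 with 1 array left out. Features higher were 2553 in the main setting, 4386 with median scaling, 1476 with no filter, 4230 with array weights and 1375 to 2222 with 1 array left out. Of all called features, 39.8% were higher, against 62.9% when arrays were scaled to their medians and 70.8% to the spike-in RNA. Turned directions were all in genes that did not pass the test. They were Agpat2 (0.09 with median scaling, 0.62 with spike-in scaling, 0.31 as the mean of probes, -0.62 to 0.12 with 1 array left out) and Angptl4 (0.36 with median scaling, 0.88 with spike-in scaling, 0.02 with normexp, 0.83 with array weights, -0.60 to 0.80 with 1 array left out, 1.14 without healthy skin 3 and tumor 1). The others were Dgat1 (-0.14 with array weights, -0.17 to 0.54 with 1 array left out, -0.10 without both), Lipe (-0.15 to 0.85 with 1 array left out, -0.23 without both), Lpin1 (0.66 with slide row as a block), Plin3 (0.27 with spike-in scaling) and Retsat (-0.04 with array weights, -0.15 without both). For Lpin1, slide row as a block compares the tumors with healthy skin 3 alone, its lowest healthy skin array. The causes of the other turns were not tested. Whether replicate numbers pair the samples is not in the labels. Deviations of same-numbered arrays correlated at 0.103, 0.129 and -0.083, and those of the other pairs at -0.275 to 0.166. With so few arrays these values cannot decide it. With the replicate number as a block, 21 of the storage genes were lower, against 13.3% of all features. Taking the most downstream probe of each gene, an alternative chosen after seeing the data, gave 23, against 15.9% of all features lower.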

Other observations

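Close relatives of the storage genes, which act in most tissues, were measured too. Of 21 tested paralogs and partners 3 fell and 4 rose, against 15.6% of all features lower and 10.3% higher. Their median was 0.07 on the log2 scale. With spike-in scaling it was 0.96, and 0 fell and 4 rose, against 3.15% of all features lower. Lpin2, a phosphatidate phosphatase related to Lpin1, read 2.13, 0.49 and 0.88 in tumors, against -1.53, -1.82 and -3.28 in healthy skin. The groups were far apart, and it was 10.4-fold higher (limma adjusted p = 0.00743). Fabp5, the epidermal fatty acid carrier related to Fabp4, read 9.03, 8.49 and 8.51 in tumors, against 7.02, 7.69 and 6.89 in healthy skin, and was 2.78-fold higher (limma adjusted p = 0.018; 0.0586 without healthy skin 1 and 0.0533 without tumor 1). Slc2a1, the general glucose transporter related to Slc2a4, was 2.93-fold higher (limma adjusted p = 0.0262). That call was lost without healthy skin 1, healthy skin 2, tumor 1 or tumor 2 (0.0757 to 0.0791).

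The PPAR family differed in direction. Pparg was 10.2-fold lower, Ppard, known for a role in keratinocytes, 3.01-fold higher (limma adjusted p = 0.016; 0.0539 without healthy skin 1 and 0.0577 without healthy skin 2), and Ppara 2.97-fold lower (limma adjusted p = 0.0381). Ppara lost its call without healthy skin 1, tumor 1, tumor 2 or tumor 3 (0.0563 to 0.0977) and with spike-in scaling (0.487). Plin2 and Plin3, the perilipins of most cell types, did not pass the test, with changes of 0.63 (95% interval -0.22 to 1.48) and -0.62 (95% interval -1.57 to 0.34). The differences between paralogs were not themselves tested.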
